A study of Caenorhabditis elegans with 6 samples.

Results

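The C-type lectin genes (clec) and galectin genes (lec) of Caenorhabditis elegans were examined in coelomocytes that expressed the transcription factor CHE-1 and in coelomocytes that did not. Every gene of the count table whose public name is clec- or lec- followed by a number was taken, which gave 249 of 21882 genes, 237 of them clec and 12 lec. Of these, 83 had a count in at least 1 library and 48 (38 clec and 10 lec) had 10 or more counts in at least 2 libraries, the rule by which genes are reported below.

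Coelomocytes are scavenger cells that take up material from the body cavity. Green cells were isolated by flow cytometry after L3 larvae had been taken apart, and the polyadenylated RNA of these cells was sequenced. The CHE-1 group (labelled Repro_CC, strain BAT2088) carried the reporter barIs177 (unc-122prom::gfp), the allele glp-4(bn2) and in addition barIs115, an array of 2xFLAG-tagged che-1 under the coelomocyte promoter of unc-122, with the red pharyngeal marker myo-2prom::mCherry. The control group (labelled WT_CC, strain BAT2087) carried barIs177 and glp-4(bn2) alone. In both groups glp-4(bn2) leaves the animals without a germline when they are raised at 25 °C after bleaching, and the mixed starting populations were kept at 15 °C. There were 3 libraries in each group, and their library numbers run in adjacent control and CHE-1 numbers, which the labels do not say are pairs. The comparison addresses how the expression of these cells differs when CHE-1, the zinc finger factor that specifies the ASE gustatory neurons, is made in them.

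C-type lectins share a fold that in many members binds sugars in a calcium-dependent way. The family is very large in nematodes, most members are secreted or sit at the cell surface, and many are known as intestinal genes that respond to infection. Galectins bind beta-galactosides, are made without a signal peptide and leave cells by an unconventional route. LEC-1 is the tandem-repeat galectin first described in the worm, with more than a single sugar-binding domain, and LEC-6 is a small galectin with a single domain that binds galactose-fucose units on worm N-glycans.

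The libraries held 21353072, 57860556 and 50101797 counts in CHE-1 libraries 1 to 3, and 57851993, 23062805 and 58325279 counts in control libraries 1 to 3. CHE-1 library 1 and control library 2 were therefore the shallowest. The gene che-1 followed the labelled genotypes and had 10744, 50917 and 42227 counts in CHE-1 libraries, against 3, 0 and 1 in control libraries. The 8 coelomocyte markers (unc-122, cup-4, lgc-26, cubn-1, ceh-34, eya-1, aman-1 and cup-5) had counts in all 6 libraries, and their summed level was 4318 to 6258 CPM in CHE-1 libraries and 15934 to 21389 CPM in control libraries. With CHE-1, 4 of the 8 were called lower, as were 1.69% of all tested genes. The markers did not fall evenly. Among those called, the log2 fold change was -8.16 for aman-1, -1.78 for cubn-1, -1.62 for cup-4 and -1.54 for lgc-26. Among those not called, it was -1.95 for eya-1, -1.94 for ceh-34, -0.37 for cup-5 and -0.29 for unc-122. CPM here are counts scaled to library size with TMM factors (trimmed mean of M-values). The marker unc-122, whose promoter drives both transgenes, was at 1359.9 ± 187 CPM in CHE-1 libraries and 1668 ± 391 CPM in control libraries (SD, n = 3 each) and was not called (adjusted p = 0.741, edgeR). In bulk samples, fewer cells of a type and less RNA per cell cannot be told apart.

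Summed over the family, the galectins were higher with CHE-1 and the C-type lectins were lower. The 12 lec genes together gave 1824, 1684 and 1855 CPM in CHE-1 libraries, against 1050.4, 798 and 1011 CPM in control libraries. The 237 clec genes together gave 702, 1054 and 817 CPM in CHE-1 libraries, against 1424, 1270.3 and 1591 CPM in control libraries. In neither sum did the groups overlap. These sums are descriptions and were not tested, since the genes were chosen with earlier results known.

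A few genes made up each sum. The pair clec-178 and clec-145 held 67.9% ± 12.9 of the clec total in CHE-1 libraries and 86.1% ± 4.02 in control libraries (SD, n = 3 each). Without that pair, the other clec genes summed to 127, 457 and 283 CPM in CHE-1 libraries and to 177.98, 234 and 171 CPM in control libraries, and these ranges overlap. Among galectins, lec-6 held 35.1%, 18.7% and 23.7% of the total in CHE-1 libraries, against 11.2%, 7.56% and 6.15% in control libraries. The share of lec-1 was 42.3% ± 5.87 in CHE-1 libraries and 65.2% ± 6.77 in control libraries (SD, n = 3 each).

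**Figure D1:**
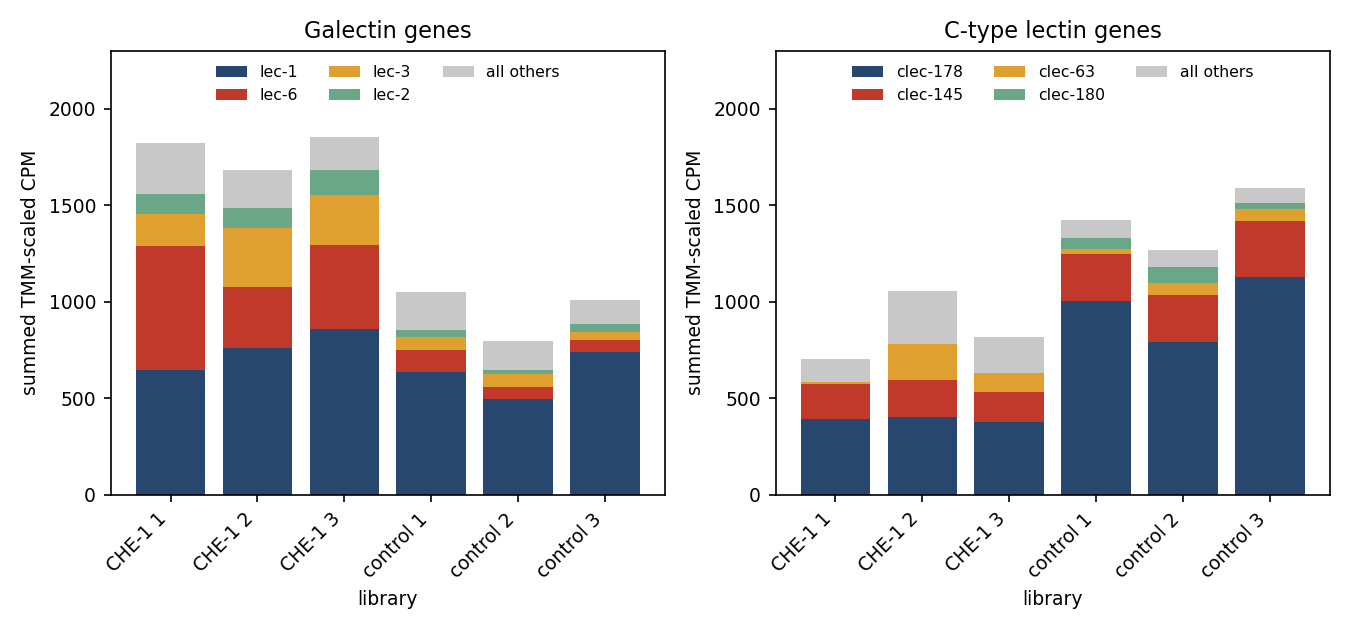
Summed TMM-scaled CPM of all lec genes (left) and all clec genes (right) in each library, with the most abundant genes in colour and the rest in grey. The lec bars reach 1684 to 1855 CPM in CHE-1 libraries and 798 to 1050.4 CPM in control libraries, while the clec bars reach 702 to 1054 CPM in CHE-1 libraries and 1270.3 to 1591 CPM in control libraries.

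Of the 48 reported genes, 32 passed the count filter of the test and 16, all clec, did not. A gene that passes through the counts of a single group tends to differ for that reason, so the 32 are not the whole family. With edgeR's quasi-likelihood test and Benjamini-Hochberg adjustment over all 9112 genes tested, 4 of the 32 were called higher (adjusted p under 0.05) in CHE-1 libraries, and 3.37% of all tested genes were. Another 2 of the 32 were called lower, as were 1.69% of all tested genes. The higher genes were lec-6, lec-3, lec-2 and clec-135, and the lower genes were clec-178 and clec-180. Of these, clec-135 passed the filter through its CHE-1 counts alone and clec-180 through its control counts alone. The limit above therefore applies to both calls. The median log2 fold change was 0.83 over the 32 genes and 0.04 over all tested genes, with 25 of the 32 positive and 7 negative. The share of positive values over all tested genes was not counted, so the 25 cannot be set against it. Several of the 25 turned negative with 1 library left out. DESeq2, which gave no adjusted p to some of the 48, called 5 higher and 2 lower (7.08% and 4.26% of its tested genes). Of the 32 genes, limma-voom called 4 higher and 2 lower (5.71% and 3.23%), and edgeR with adjusted deviances 4 and 2 (7.65% and 3.9%). The gene added by DESeq2 was clec-265. Of the 32, 10 had groups that did not overlap, as did 23.4% of all tested genes.

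**Figure D2:**
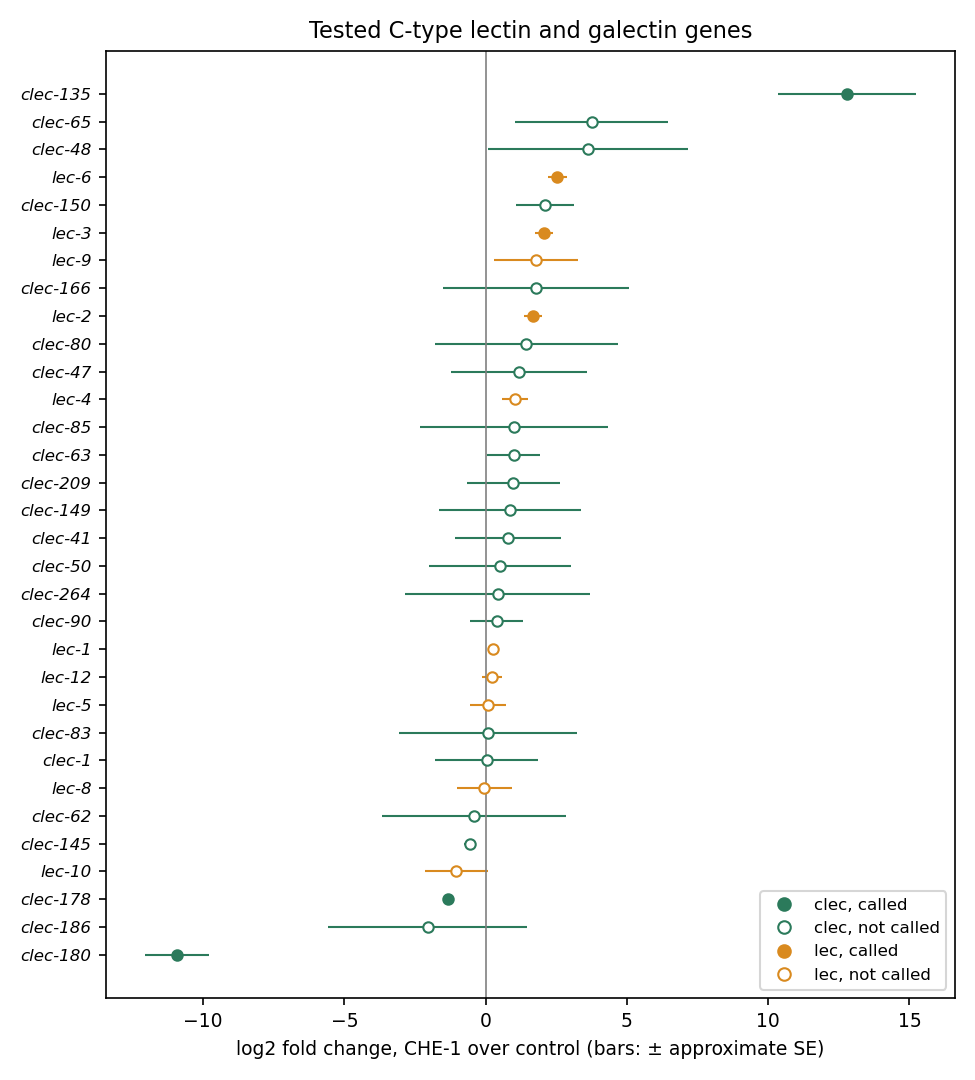
Log2 fold change of each of the 32 tested genes, CHE-1 over control, with bars of ± 1 approximate SE; filled points passed the test and open points did not, green for clec and orange for lec. The 6 filled points lie at 12.80 (clec-135), 2.54 (lec-6), 2.06 (lec-3), 1.68 (lec-2), -1.32 (clec-178) and -10.92 (clec-180), and the widest bars belong to clec genes with counts in few libraries.

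The galectins were broadly detected. Of the 12 lec genes, 10 were reported and tested, 9 of these had counts in all 6 libraries, lec-11 had 41 counts in control library 3 alone, and lec-7 had none. Of the 10, 3 were called higher and 0 lower, beside 3.37% and 1.69% of all tested genes, and 7 did not pass. Their median log2 fold change was 0.66.

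The largest galectin change was that of lec-6 (WBGene00002269, chromosome III, 599510 to 600366 on WBcel235, the build of all coordinates here). It was at 641, 315 and 439.6 CPM in CHE-1 libraries, against 117, 60.3 and 62.1 CPM in control libraries. Every CHE-1 library lay above every control library. On the log2 scale the change was 2.54 ± 0.35 (approximate SE, as throughout; adjusted p = 0.00109, edgeR). In every alternative setting it was called, and its log2 fold change stayed between 2.02 and 2.88.

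The genes lec-3 and lec-2 lie near each other on chromosome II, 9256 bases apart and on opposite strands, and both rose. Expression of lec-3 (WBGene00002266, 9991112 to 10000351) was 166, 305 and 257 CPM in CHE-1 libraries, against 66.4, 66.6 and 41.2 CPM in control libraries. All CHE-1 libraries lay above the controls, and lec-3 was higher by 2.06 ± 0.31 on the log2 scale (adjusted p = 0.00221, edgeR). The 3′ end of lec-3 overlaps exons of nlt-1 on the other strand. That neighbour had 1544 counts over all libraries, beside 43531 for lec-3, and the sources used here do not say whether counting used strand.

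Expression of lec-2 (WBGene00002265, 10009608 to 10016183) was 105, 105 and 127 CPM in CHE-1 libraries, against 37.6, 23.4 and 44.3 CPM in control libraries. The CHE-1 libraries lay close together and above all controls. The difference was 1.68 ± 0.33 in log2 units (adjusted p = 0.0120, edgeR). With CHE-1 library 1 and control library 2 left out, the shallowest pair, the log2 difference was 1.44 and no longer passed (adjusted p = 0.0515, edgeR).

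The most abundant galectin gene by CPM, lec-1 (WBGene00002264, chromosome II, 13195549 to 13199713), did not pass. It was at 648, 761 and 857 CPM in CHE-1 libraries and at 635, 497 and 738 CPM in control libraries. These ranges overlap, and the log2 difference of 0.28 ± 0.21 had an adjusted p of 0.784 (edgeR). An unchanged level is not shown by this.

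The other galectin genes that did not pass differed in their spread. The gene lec-12 was even, at 85.4, 54.7 and 47.3 CPM in CHE-1 libraries and 62.4, 57.9 and 40.7 CPM in control libraries. For lec-4, CHE-1 library 1 stood out at 124 CPM, with 38.2 and 59.2 CPM in the other CHE-1 libraries and 38.1, 41.6 and 27.9 CPM in control libraries (log2 fold change 1.04, adjusted p = 0.313 in edgeR). For lec-5 the CHE-1 libraries spread from 9.16 to 40.1 CPM around the controls at 21 to 25.5 CPM.

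Of the galectins with low levels, lec-8 is known to bind worm glycolipids and to affect the response to a bacterial crystal toxin. It was at 15.8, 13.6 and 11.2 CPM in CHE-1 libraries, and at 26.8, 6.59 and 8.42 CPM in control libraries. The gene lec-9 was at 14.5, 33.9 and 32.1 CPM in CHE-1 libraries, against 11.7, 0 and 11.5 CPM in control libraries. Its groups did not overlap, but the log2 fold change of 1.79 had an SE of 1.49 (adjusted p = 0.862 in edgeR). In lec-10 CHE-1 library 1 had 7 counts, or 0.317 CPM, beside 16.9 and 15.7 CPM in the other CHE-1 libraries and 30.1, 22.5 and 15.4 CPM in control libraries.

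**Figure D3:**
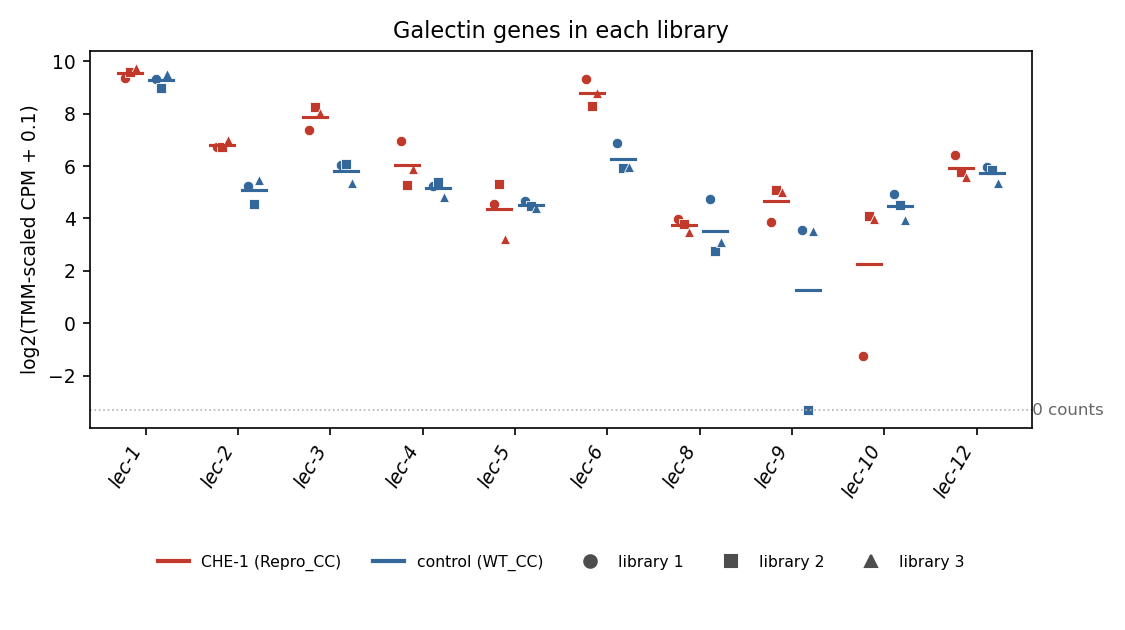
Expression of the 10 reported lec genes as log2(TMM-scaled CPM + 0.1), 1 symbol per library and a short line at the mean of the log values, CHE-1 in red and control in blue; the dotted line marks 0 counts. The red symbols of lec-2, lec-3, lec-6 and lec-9 lie above all blue ones, while those of lec-1, lec-5, lec-8 and lec-12 overlap them.

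Among the C-type lectins, detection was sparse. Of 237 clec genes, 165 had no count in any library, 34 had counts below the reporting rule and 38 were reported. Of the 38, 22 were tested, and 1 was called higher, 2 lower and 19 not called, beside 3.37% higher and 1.69% lower of all tested genes. In all, 4 of the 22 had an unadjusted edgeR p under 0.05, as did 1297 of all 9112 tested genes.

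The gene clec-178 (WBGene00020585, chromosome IV, 5653949 to 5655003) had the highest level per length of the whole family in control libraries and fell with CHE-1. It was at 393, 405 and 376 CPM in CHE-1 libraries, against 1006, 789 and 1129.9 CPM in control libraries. The groups were far apart, and the CHE-1 libraries differed from each other by at most 1.08 times. The log2 difference was -1.32 ± 0.19 (adjusted p = 0.00177, edgeR), and with each library left out in turn it ran from -1.52 to -1.23.

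The gene clec-180 (WBGene00017991, chromosome IV, starting at 7568893) was close to absent with CHE-1. It had 0, 4 and 0 counts in CHE-1 libraries, against 2965, 1999 and 1549 counts in control libraries. In CPM that is 0.0212 ± 0.0367 in CHE-1 libraries and 57.0 ± 27.5 in control libraries (SD, n = 3 each). The fitted log2 difference of -10.92 ± 1.14 (adjusted p = 0.000160, edgeR) rests on those 4 counts on the CHE-1 side, so its size is uncertain. It was called in every alternative setting. The summed coelomocyte markers were lower in CHE-1 libraries too, and their part in the values of clec-178 and clec-180 was not tested.

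The gene clec-135 (WBGene00015821, chromosome II, starting at 4257049) showed the opposite pattern. It had 185, 531 and 2275 counts in CHE-1 libraries, and no count in any control library. Its mean of 20.1 ± 20.2 CPM in CHE-1 libraries was at least 250.2-fold higher than the level that 3 counts in each control library would give, 0.0802 CPM (floor for counting error only). CHE-1 library 3 stood above the other CHE-1 libraries, at 43.4 CPM beside 8.38 and 8.43 CPM. Without it the mean was 8.41 CPM and the bound at least 105-fold higher. The call (adjusted p = 0.0155 in edgeR) was lost without CHE-1 library 3 (adjusted p = 0.321). With no count in any control library, the direction could not turn in any alternative.

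The second most abundant clec gene, clec-145 (WBGene00013013, chromosome II, 13588776 to 13590561), was lower in each CHE-1 library but was not called. It was at 183, 192 and 158 CPM in CHE-1 libraries, against 239.5, 247 and 291 CPM in control libraries. The groups did not overlap, but -0.55 ± 0.21 in log2 units did not pass (adjusted p = 0.242, edgeR). Its exons overlap those of Y48E1B.8 on the other strand, which had 1034 counts in all.

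Several genes leaned towards higher values with CHE-1 without passing. For clec-150 the CHE-1 libraries were at 34.9, 24.3 and 11.4 CPM, against 7.30, 7.72 and 1.45 CPM in control libraries (log2 difference 2.10 ± 1.01, adjusted p = 0.405, edgeR). For clec-65 they were at 16.8, 3.24 and 4.63 CPM, against 0.177, 0 and 1.64 CPM in control libraries (log2 difference 3.75 ± 2.72, adjusted p = 0.764, edgeR). In both genes every CHE-1 library lay above every control library. The genes clec-48 and clec-166 had log2 fold changes of 3.63 and 1.79 with SEs of 3.55 and 3.29. Each had no count in 1 CHE-1 library and in 2 control libraries.

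The gene clec-63 (WBGene00009394, chromosome II, 12895638 to 12897446) varied most between CHE-1 libraries among the 10 genes with the highest mean CPM, clec-180 with its counts of 0 aside. It was at 9.29, 187 and 98.4 CPM in CHE-1 libraries, and at 26.6, 59.6 and 62.1 CPM in control libraries. The CHE-1 libraries spanned 20.1 times, and the controls lay inside that span. It belongs to a run of neighbours from clec-62 to clec-66. Of that run, clec-62, clec-65 and clec-66 had 500, 915 and 305 counts over all libraries, clec-63 had 23218, and clec-64 had none.

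In the opposite direction clec-186 and clec-62 had negative log2 fold changes, -2.05 and -0.41, with SEs of 3.53 and 3.27. For clec-186 the counts were 0, 127 and 0 in CHE-1 libraries and 405, 0 and 25 in control libraries. For clec-62 they were 0, 314 and 7 in CHE-1 libraries and 0, 149 and 30 in control libraries. In both genes the groups overlap. The other 11 tested clec genes had log2 fold changes of 0.03 to 1.44, none of them called, with a lowest adjusted p of 0.998 in edgeR. With limma-voom these values ran from -4.18 to 3.34, and with 1 library left out from -10.20 to 10.24. Their directions are therefore not settled.

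**Figure D4:**
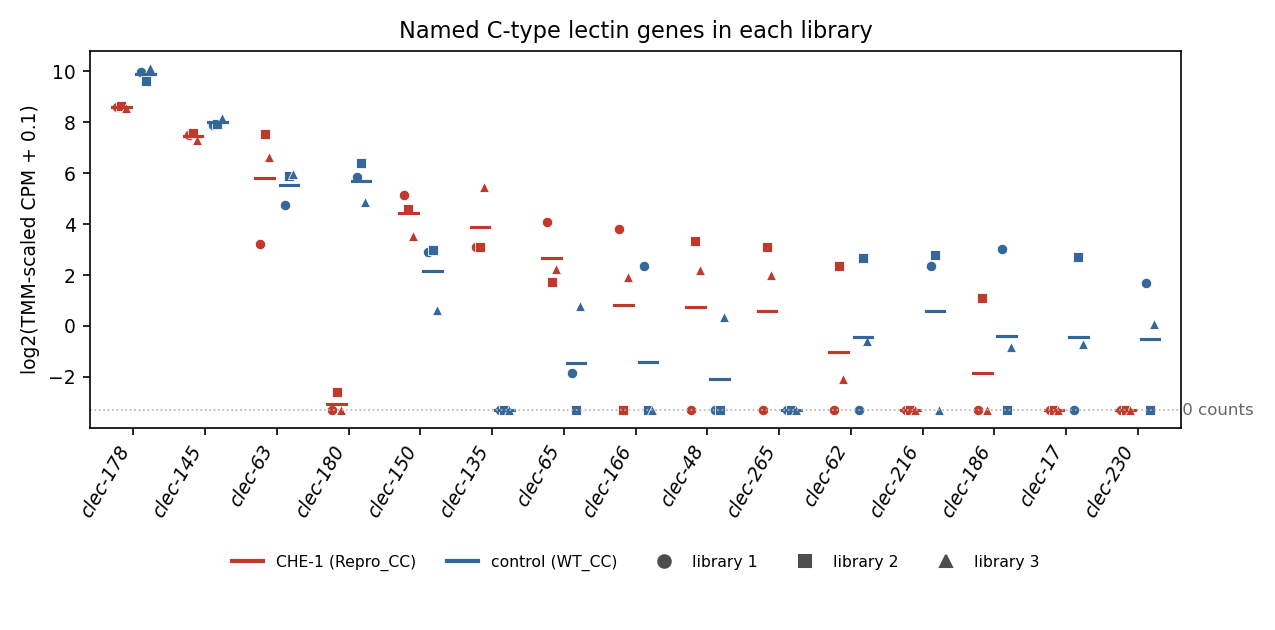
Expression of the 15 named clec genes as log2(TMM-scaled CPM + 0.1), with 1 symbol per library, a short line at the mean of the log values, CHE-1 in red and control in blue; the dotted line marks 0 counts. All red symbols lie below the blue ones for clec-178, clec-145 and clec-180 and above them for clec-135, clec-150 and clec-65, and many of the other genes have symbols on the dotted line in both groups.

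The 16 reported clec genes outside the test had mean levels of 0.206 to 2.07 CPM over the 6 libraries. When all 10476 genes with 10 or more counts in at least 2 libraries were tested instead, 3.02% were called higher and 1.56% lower, and 0 of these 16 passed, with a lowest adjusted p of 0.377 in edgeR. Of the 16, 4 had counts in a single group. The gene clec-265 had 0, 534 and 205 counts in CHE-1 libraries and none in control libraries. The genes clec-216, clec-17 and clec-230 had none in CHE-1 libraries. In control libraries clec-216 had 255, 162 and 0 counts, clec-17 had 0, 152 and 27, and clec-230 had 160, 0 and 51.

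Zeros beside high counts were common. Of the 38 reported clec genes, 32 (84.2%) had a count of 0 in at least 1 library and 15 in 4 libraries, against 47.6% of all 10476 genes that meet the rule with a count of 0 in at least 1. Of the 10 lec genes, 1 had such a library. The number of reported clec genes with a count was 12, 30 and 22 in CHE-1 libraries and 22, 15 and 31 in control libraries, lowest in the shallowest library of each group. Over all clec and lec genes with a count, 73.8% of the values above 0 were 100 or more and 8.58% were under 10. Over all genes these shares were 87.6% and 3.18%. High values beside zeros were thus found in the whole table, but the reported clec genes had zeros more often. A count of 0 therefore does not show that a gene was silent, and a single library with many counts does not show that its group differs.

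**Figure D5:**
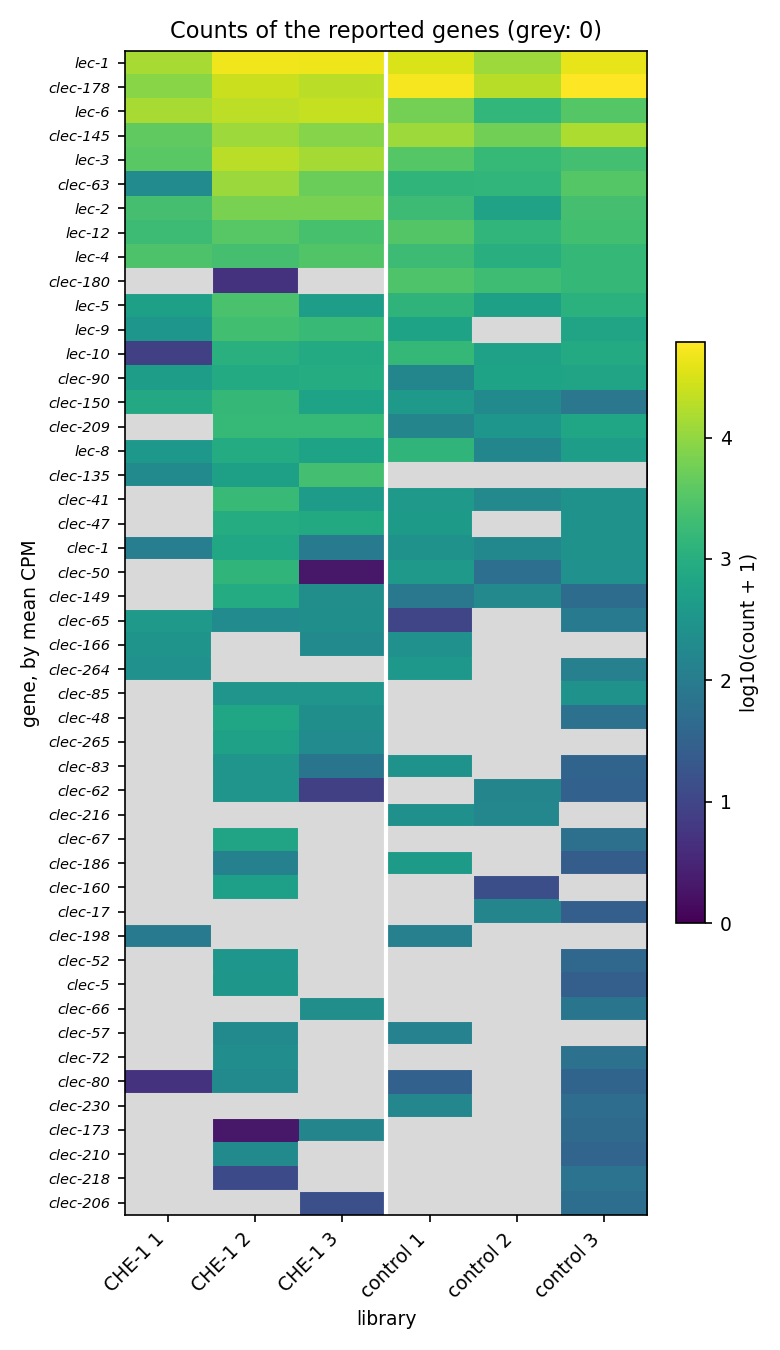
Counts of the 48 reported genes (rows, by mean CPM) in each library (columns) as log10(count + 1), with grey for 0. The upper rows, mostly lec genes, are largely filled, with grey for clec-180 in CHE-1 libraries 1 and 3 and for lec-9 in control library 2. In the lower rows CHE-1 library 1 and control library 2 are mostly grey, and so are the deeper CHE-1 library 3 and control library 1 in the lowest rows.

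The reporting rule left 35 genes with counts outside, 34 clec and lec-11. Of them, 29 had counts in 1 library only, with a highest value of 531. Just inside the rule, clec-218, clec-160 and clec-206 had 11, 13 and 14 counts in their second highest library. Just outside, clec-40 had 393 counts in CHE-1 library 2 and 9 in the next, and clec-233 had 10 and 4. Genes known for induction in infected animals were among those outside: clec-60 had 115 counts in CHE-1 library 2 only, and clec-4 had 194 counts in control library 1 only.

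Per length of exon (CPM per kb of the union of annotated exons), the order of levels differed between the groups. In CHE-1 libraries lec-6 was at 861 ± 304, clec-178 at 624 ± 23.3 and lec-1 at 575 ± 79.4 CPM per kb, and these do not differ beyond their spread. The next were clec-145 at 131 ± 13 and lec-3 at 91.3 ± 26.6 CPM per kb. In control libraries clec-178 was at 1558 ± 275, lec-1 at 475 ± 91.9, clec-145 at 191 ± 20.3 and lec-6 at 148 ± 59.8 CPM per kb (SD, n = 3 each). There, clec-145 and lec-6 lay within their spread of each other, and clec-178 and lec-1 did not.

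The family is spread over the genome in clusters. Of 249 genes, 150 lie in 45 runs in which each is within 3 protein-coding genes of the next, but 20 of the 48 reported genes do. Chromosome V holds 84 of the 237 clec genes and 13 of the 38 reported, chromosome IV 53 and 12, chromosome II 48 and 6, and chromosome I 35 and 2. A run of 13 clec genes on chromosome V (clec-40 to clec-33) had counts for 2 and a run of 7 on chromosome I (clec-93 to clec-99) for none. How the upstream estimate split reads between similar neighbours was not examined.

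Other secreted immune effectors did not pass the test. Of 77 genes in the table (lysozymes, saposin-like proteins, antimicrobial peptides, thaumatins and infection response genes), 23 were tested. None was called by edgeR, DESeq2 or limma-voom. The number with an unadjusted edgeR p under 0.05 was 0, beside 1297 of all 9112 tested genes. Their median log2 fold change was 0.58. The most abundant were the infection response genes irg-7, at 97.5 ± 108 CPM in CHE-1 libraries and 65.3 ± 13.6 CPM in control libraries, and irg-5, at 27.9 ± 20.5 CPM in CHE-1 libraries and 68.7 ± 63.5 CPM in control libraries (SD, n = 3 each).

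Of 34 tested genes of immune signalling pathways, 3 were higher (3.37% of all tested genes were) and 1 lower (1.69%), with a median log2 fold change of 0.12. The protein kinase D gene dkf-2 was at 195 CPM in CHE-1 libraries, against 36.4 CPM in control libraries (log2 fold change 2.42, adjusted p = 0.000409 in edgeR). The Tribbles pseudokinase gene nipi-3 was at 593 CPM in CHE-1 libraries, against 304 CPM in control libraries (0.96, adjusted p = 0.00956), and the ERK gene mpk-1 at 159 CPM in CHE-1 libraries, against 56.1 CPM in control libraries (1.50, adjusted p = 0.0355). The MAP kinase kinase kinase gene nsy-1, upstream of the p38 kinase, was at 106 CPM in CHE-1 and 256 CPM in control libraries (-1.27, adjusted p = 0.0112). Without the shallowest library of each group nsy-1 (0.0549) and nipi-3 (0.0561) no longer passed. The call of nipi-3 was also lost without control library 3 (adjusted p = 0.0643), that of mpk-1 without CHE-1 library 2 (0.107), CHE-1 library 3 (0.0731) or control library 2 (0.0746). The abundant transcription factor gene zip-2 was at 2704 CPM in CHE-1 libraries, against 1747 CPM in control libraries, and was called by DESeq2 and limma-voom (adjusted p = 0.00658 and 0.000409), by edgeR with adjusted deviances (0.0179) or without a count filter (0.0271), and not by edgeR as fitted here (0.0830). The gene skn-1 was at 588 CPM in CHE-1 libraries and 626 CPM in control libraries.

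Of 48 tested genes that make or trim glycans, the ligands of lectins, 1 was higher and 0 lower, with a median log2 fold change of -0.19, beside 3.37% and 1.69% of all tested genes. This is no more than the share over all genes. The gene that rose was gly-20, which encodes N-acetylglucosaminyltransferase II of N-glycan synthesis. It was at 583 CPM in CHE-1 libraries, against 142 CPM in control libraries (log2 fold change 2.04, adjusted p = 0.00162 in edgeR), and the call held in all alternatives. The hexosaminidase gene hex-1 was at 2788 CPM in CHE-1 and 2515 CPM in control libraries. DESeq2 called 1 higher and 4 lower of this list (7.08% and 4.26% of its tested genes), and limma-voom 2 and 2 (5.71% and 3.23%).

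Markers of other cell types are given here beside these values. For the counts of called markers, the shares over all tested genes were 3.37% higher and 1.69% lower. The 21 intestinal markers, all with a count, summed to 290.1, 1185 and 814 CPM in CHE-1 libraries and to 317, 385 and 399.5 CPM in control libraries. Of the 18 tested 0 were called, with a median log2 fold change of 1.07. An unadjusted edgeR p under 0.05 was found for 2, beside 1297 of all 9112 tested genes. In CHE-1 library 2, asp-1 gave 691 of the 1185 CPM, and elt-2 was at 2.48 CPM. CHE-1 library 2, highest in this sum, also had the highest CPM for 15 of the 38 reported clec genes and the highest level of clec-63. How often this library was highest over all genes was not counted, so the 15 cannot be set against a share. CHE-1 library 1, lowest in this sum, had the lowest level of clec-63. The number of the 21 with a count was 9, 16 and 15 in CHE-1 libraries and 14, 7 and 21 in control libraries. The 20 epidermal markers summed to 431 to 637 CPM in CHE-1 and 406 to 773 CPM in control libraries, with 0 of 15 called. The 17 pharyngeal ones summed to 228 to 286 CPM in CHE-1 and 249 to 779 CPM in control libraries, and the 21 germline ones to 406 to 566 CPM in CHE-1 and 548 to 640.0 CPM in control libraries, with 0 of 12 called in each. The 17 body wall muscle markers summed to 22098 to 30426 CPM in CHE-1 and 40043 to 41530 CPM in control libraries, with 2 of 16 called higher and 1 lower and a median log2 fold change of 0.34. The lower sum was that of unc-54, at 15170.1 to 22777 CPM in CHE-1 and 34911 to 37108 CPM in control libraries. The other 16 summed to 6535 to 8412 CPM in CHE-1 and 4221 to 5623 CPM in control libraries. The 18 neuronal ones summed to 6720.0 to 7840.1 CPM in CHE-1 and 975 to 1132 CPM in control libraries, with 9 of 16 called higher and 1 lower. At 0 in every library were the epidermal bli-1 and nhr-73 and the germline oma-2, him-3 and syp-1. The part of other cells in the lectin values was not tested.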

How the data were processed

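The values used were the estimated counts of each gene as deposited, which are whole numbers in the raw table, for 3 CHE-1 and 3 control libraries. The submitters' processing notes list Salmon 0.13.1, DESeq2 and WBcel235 but not what each was used for. The summing of transcripts to genes and the strand setting are not given in those sources. Per the series' design text the libraries were strand-specific and paired-end. The deposited normalized table was not used, and planned descriptions of protein and promoter sequences were not made here.

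Symbols came from a gene name table, which names 19626 of 21882 identifiers, and coordinates and exon lengths from the WBcel235 annotation (21714 identifiers). The annotation gives the name clec-209 to another identifier as well; values here are those of WBGene00018910. Members and gene lists were chosen with earlier results of these data known.

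All genes were fitted at once with edgeR 4.0.16 in R 4.3.3 (TMM factors, robust glmQLFit and glmQLFTest, two-sided, filterByExpr with a minimum count of 10 and total of 15). The SE is the absolute log2 fold change divided by the square root of F and is approximate, above all near 0 counts. The script was tested on simulated counts. Alternatives were DESeq2 1.42.0, limma-voom 3.58.1, other scaling factors, deviances and count filters, left-out libraries and, added after seeing the data, pairs of adjacent library numbers. No 2 libraries were duplicates (lowest chi-square of any pair in a group, divided by its degrees of freedom, 207). The labels do not tie libraries to separate cultures or sorts. P-values therefore cover the spread among these samples alone, and it may be technical. Floors cover counting error only, while the SDs and SEs also hold the spread among these libraries.

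The genes named are every reported member that was called, the 10 with the highest mean CPM, every lec gene, the 5 highest and 5 lowest log2 fold changes among those tested and not called, and those without a count in 1 group; of each pathway list, the called genes and the top 2 by mean CPM. Others were named for their place at the edge of the rule, in a run of neighbours or as infection-induced genes after their values were seen.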

Additional observations from a re-analysis of the deposited data

How the results depend on the processing

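The number of clec and lec genes called higher stayed between 3 and 5, and that called lower at 2, under every alternative. Of the 6 called genes, clec-178, clec-180, lec-3 and lec-6 were called in all 14 alternatives, lec-2 in 13 and clec-135 in 12. The direction of all 6 held throughout, which adds little, since the groups of each did not overlap. The library numbers are adjacent in pairs of 1 control and 1 CHE-1 library, but the labels do not say that these were made together. Deviations from the group means in adjacent libraries correlated at -0.00083 to 0.088 over 9112 genes, and not every library correlated best with its neighbour. A replicate block of these pairs, added after seeing the data, called 364 genes higher and 205 lower, with 3 and 2 clec and lec genes among them. Under it clec-135 missed the threshold (adjusted p = 0.0502, edgeR), immune signalling had 6 genes higher, and the log2 fold changes of lec-5, lec-8 and irg-7, none of them called, were -0.15, 0.24 and -0.016.

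Counts over all genes moved with the tool: 685 higher and 412 lower with DESeq2, 520 and 294 with limma-voom, 697 and 355 with adjusted deviances, and 474 and 255 without a count filter. For immune signalling, 5, 6, 7 and 6 genes were called higher under DESeq2, limma-voom, adjusted deviances and no count filter, and 0 lower without the shallowest library of each group. For the listed glycan genes, limma-voom, adjusted deviances and no count filter gave 2, 3 and 3 higher and 2, 3 and 3 lower. DESeq2 gave 4 lower, and leaving out the shallowest libraries gave 2 higher and 1 lower. Leaving out 1 library gave 1 to 2 higher and 0 to 1 lower. Scaled to library totals without TMM factors, the lec genes summed to 1886 CPM in CHE-1 libraries. The cause of these moves was not tested.

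Directions that turned all belonged to genes that were not called. The log2 fold change of clec-62 was 0.010 with limma-voom, 0.72 with adjusted deviances and 3.09 without the shallowest libraries, and -4.99 to 2.52 with 1 library left out. That of lec-5 was -0.14 with limma-voom and -0.48 to 0.48 with 1 library left out. Without the shallowest libraries, clec-166 was at -0.47, lec-12 at -0.071, irg-5 at 0.18 and hex-1 at -0.10. With 1 library left out, clec-186 ran from -9.83 to 1.43, lec-8 from -0.44 to 0.80, lec-12 from -0.072 to 0.38, irg-7 from -0.89 to 0.99 and hex-1 from -0.022 to 0.32.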
